A study of Mus musculus with 36 samples.

Results

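Macrophages grown from mouse bone marrow (BMDM) were collected 2 h after lipopolysaccharide (LPS, from the outer membrane of bacteria) was added at 100 ng/mL, and the gene counts of these 12 libraries, of 36 in all, were compared by genotype label. The 6 libraries labelled NOS1 KO (5) or BMDM NOS1 KO (1) formed the KO-labelled group, and the 6 labelled WT (5) or BMDM WT (1) formed the WT-labelled group. Both groups were marrow cells grown for 5 days in 20 ng/mL macrophage colony-stimulating factor, and the series text gives the wild type as C65BL6. The labels do not give the knockout allele, the strain of the KO-labelled mice, their age or sex, or which libraries came from which animal or culture. The 12 libraries were chosen from their treatment and genotype labels alone, and all 12957 genes that passed a filter on low counts were tested.

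LPS is sensed by TLR4, which signals through MyD88 and NF-kB to inflammatory cytokine genes, and through TRIF and IRF3 to the interferon-beta gene. Interferon-beta then acts back on the macrophage through its receptor and raises a large group of interferon-stimulated genes, many of which share a promoter element called the ISRE. Nos1 encodes neuronal nitric oxide synthase, and macrophages are better known for the inducible enzyme encoded by Nos2.

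Library totals ran from 10094354 to 18482551 counts. All 20 macrophage identity genes listed, among them Csf1r and Adgre1, were found, and they summed to between 33150 and 39020 CPM (counts scaled to a common library total) in every library. Within each group the libraries fell into 2 sets that the labels do not give, replicates 1, 2 and 6 (set A) and replicates 3, 4 and 5 (set B), so each comparison is given over all 12 libraries and within each set. Libraries of the same group differed by a median chi-square per gene of 2.79 within set B, 18.01 within set A and 49.49 across the sets. The labels do not say that libraries of a group are separate cultures or animals. The p-values thus rest on variation among libraries that may be no more than technical, apart from WT-labelled replicate 1, described next. WT-labelled replicate 1 (set A) held 6526 reads of Xist and none of the Y-linked genes, while the other 11 libraries held 0 to 1 Xist reads. Skeletal muscle markers summed to 602 CPM in WT-labelled replicate 6, 234 CPM in WT-labelled replicate 5 and between 12.4 and 77.3 CPM in the KO-labelled libraries. These 3 WT-labelled libraries are treated as libraries in doubt.

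Counts of Nos1 went against the KO label that names it. Nos1 (ENSMUSG00000029361, mm10 chromosome 5, 117781032 to 117958840) had 36, 55 and 42 counts in the KO-labelled libraries of set A and 38, 30 and 52 in those of set B. The WT-labelled libraries had 0, 1 and 4 counts in set A and 0, 1 and 1 in set B. The groups did not overlap, and the log2 fold change of KO-labelled over WT-labelled libraries was 5.25 ± 0.56 (SE; edgeR adjusted p = 8.68e-07). Counts per gene do not say which exons were read, so a transcript lacking a deleted part was not tested for. Libraries are named by their labels below, and each direction rests on those labels.

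Over all 12 libraries very little differed between the genotype labels after 2 h of LPS. Of the 12957 genes tested with edgeR's quasi-likelihood test, 3 were called at an adjusted p below 0.05, which is 0.0232% of them, and 401 had an unadjusted p below 0.05. Besides Nos1 these were Rplp0, a protein of the large ribosomal subunit's stalk, which was lower, and Ankrd55, an ankyrin repeat protein, which was higher. Without a model, 24 genes (0.185%) had libraries of the 2 labels that did not overlap, 17 higher and 7 lower in KO-labelled libraries.

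Ankrd55 (ENSMUSG00000049985, chromosome 13, 112288451 to 112384002) was a gene of few counts. The KO-labelled libraries had 11 to 21 counts (lowest, median and highest 0.822, 1.24 and 1.5 CPM) and the WT-labelled ones 5 to 9 counts (0.348, 0.509 and 0.665 CPM). The groups did not overlap, and the log2 fold change was 1.27 ± 0.25 (edgeR adjusted p = 0.0492). Leaving out any 1 of the 12 libraries except KO-labelled replicate 2 took the call away, with adjusted p values of 0.0521 to 0.22, and DESeq2 (0.0738) and limma-voom (0.16) did not call it.

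Over all 12 libraries no NF-kB, cytokine or chemokine gene of the lists used here was called. Tnf, an early inflammatory cytokine, stood at 2666, 2489 and 2785 CPM in KO-labelled and 2568, 2568 and 2411 CPM in WT-labelled libraries of set A. In set B the values were 2233, 2247 and 2272 against 2460, 2549 and 2665 CPM. The labels overlapped in set A, the KO-labelled libraries were the lower ones in set B, and the log2 fold change over all libraries was -0.05 ± 0.18 (edgeR adjusted p = 1.0). Nfkbia, the inhibitor that NF-kB induces to switch itself off, differed by -0.06 ± 0.10, and Tnfaip3, which encodes the ubiquitin-editing inhibitor A20, by 0.09 ± 0.24. Among 31 NF-kB and feedback genes edgeR called 0 (1 at an unadjusted p below 0.05, and 0 by DESeq2 or limma-voom), with a median log2 fold change of -0.09 beside -0.01 over all genes tested. Among 26 cytokines the call count was also 0 (1 unadjusted, 0 by either other tool), with a median of 0.11, and among 21 chemokines it was 0 (0 unadjusted) with a median of -0.03. Il1b differed by -0.18 ± 0.31, Il12b by -0.46 ± 0.38, Nos2 by -0.43 ± 0.40 and Cxcl10 by -0.04 ± 0.27, none of them called. Within the sets a few members were called. Higher in set B were 3 of 26 cytokines and 1 of 21 chemokines (2.3% of all genes were). Lower there was 1 of 31 NF-kB genes (0.648% of all genes were). Lower in set A was 1 of 26 cytokines (0.201% of all genes were called there in either direction). In set B these were Tnfsf10 (2.01), Cxcl11 (1.20), the costimulatory ligand Tnfsf4 (0.998) and the lymphocyte growth factor Il15 (0.50), all higher, and the adhesion molecule Vcam1, lower (-0.58; edgeR adjusted p = 0.0164). In set A it was Il27, lower (-0.65). The difference between the sets was called for 4 of the cytokines (Il27, Il15, Tnfsf4 and Tnfsf10), 2 of the chemokines (Cxcl11 and Ccl22) and no NF-kB gene, beside 280 of all 12957 genes.

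Socs1, the feedback inhibitor of JAK kinases named in the title of the series, ranged from 6.87 to 29.7 CPM in KO-labelled libraries (median 22.7) and from 11.1 to 29.9 CPM in WT-labelled ones (median 15.1). Its log2 fold change over all libraries was 0.19 ± 0.24 (edgeR adjusted p = 1.0). The sets differed in direction. In set B all 3 KO-labelled libraries (26.2, 29.7 and 27.2 CPM) lay above the WT-labelled ones (12.9, 15.4 and 14.7 CPM), by 0.95 ± 0.26 (adjusted p = 0.0403). In set A they stood at 19.1, 6.87 and 15.2 against 29.9, 11.1 and 24.6 CPM (-0.71 ± 0.27, not called), and the difference between the sets was 1.65 (adjusted p = 0.0107). The set B call was lost without any 1 of the 6 libraries of that set.

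With the library set as a term in the model, 9 genes were called (0.0695%), 7 higher and 2 lower. The 3 genes above were joined by Gltp, a glycolipid transfer protein, which was lower by -0.38, and by Coq5, an enzyme of coenzyme Q synthesis (0.46), Nabp1, a single-strand DNA binding protein (0.35), 1500011B03Rik (0.64), the pseudogene Gm14165 (1.26) and Ifnb1 (1.31; adjusted p = 0.0336). Within the sets, edgeR called 26 genes in set A (0.201%, 15 higher, 11 lower), in 1 fit of all libraries whose spread both sets share. In set B it called 298 higher (2.3%) and 84 lower (0.648%), together 2.95%. Fits of each set by itself called 9 genes in set A and 1398 in set B. Of the 298 higher genes, 110 exceeded 1 on the log2 scale, and 54 belong to the list of interferon-stimulated genes. The 7 genes called in both sets moved the same way in each: Nos1, Rplp0, its pseudogenes Gm8730 and Gm9625, Gltp, Nabp1 and Arhgap25, a Rac GTPase-activating protein of leukocytes. Arhgap25 stood at 73.4, 84.2 and 80.3 against 50.6, 59.9 and 48.6 CPM in set A, and at 32.8, 32.01 and 37.4 against 19.8, 17.2 and 18.2 CPM in set B. The labels separated within each set but not across them, since the levels of the sets differed.

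**Figure D1:**
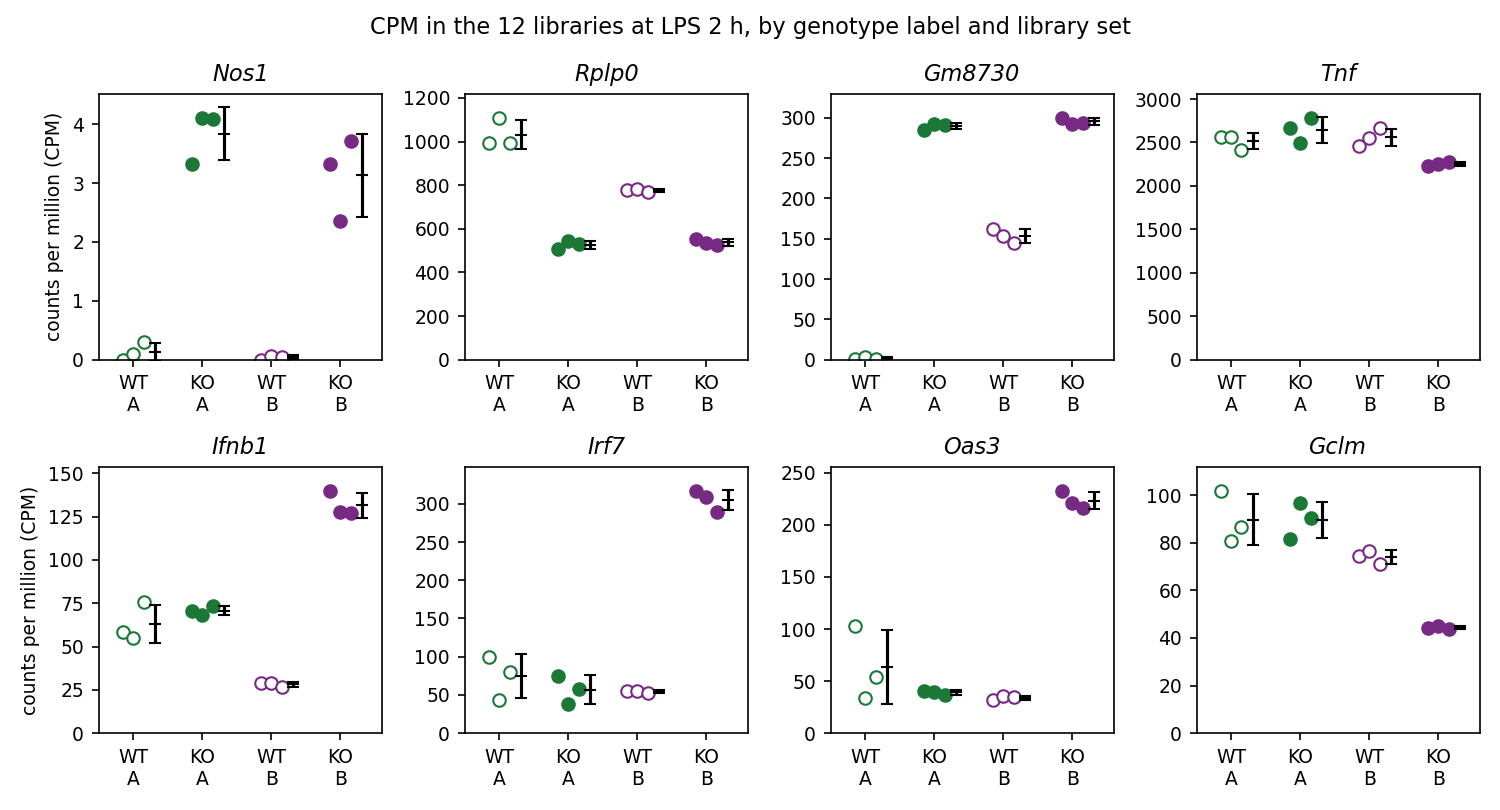
CPM of 8 genes in the 12 libraries at LPS 2 h (y axis, linear, from 0), by genotype label and library set (open circles WT-labelled, filled KO-labelled; green set A, purple set B; bars mean and SD of 3 libraries). Nos1, Rplp0 and Gm8730 separate the labels in both sets, Tnf does not in set A, and Ifnb1, Irf7, Oas3 and Gclm separate them in set B.

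Rplp0 and its pseudogenes moved in opposite directions, and their sequences are near-identical. Rplp0 (ENSMUSG00000067274, chromosome 5, 115559467 to 115563727) has processed pseudogenes on chromosomes 8 (Gm8730), 13 (Gm9625) and 2 (Gm14165), which match its coding part at 98.7%, 97.4% and 97.2% identity. The stretch of 60 bases shown was chosen, among gap-free ones, for the most differences from Rplp0 in the copy that differs least there. Ties were broken by the total over the copies, and a single copy may differ more in another stretch. It covers transcript positions 258 to 317 of Rplp0-201 (GENCODE M21), with the bases that differ from Rplp0 in capitals.
Rplp0: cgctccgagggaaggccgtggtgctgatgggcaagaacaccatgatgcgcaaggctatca
Gm8730: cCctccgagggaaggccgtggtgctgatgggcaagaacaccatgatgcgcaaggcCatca
Gm9625: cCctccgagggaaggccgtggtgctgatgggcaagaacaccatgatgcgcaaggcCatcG
Gm14165: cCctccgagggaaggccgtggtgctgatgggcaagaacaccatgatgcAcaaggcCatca
Counted from 1 at the left end of the stretch, Gm8730 carries G2C and T56C, Gm9625 also A60G, and Gm14165 also G49A. In this stretch 2 to 3 bases set a copy apart from Rplp0, so few bases decide where a read from it is counted.

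Rplp0 stood at 507, 543 and 529 CPM in KO-labelled and 992, 1110 and 993 CPM in WT-labelled libraries of set A, and at 554, 534 and 525 against 778, 783 and 769 CPM in set B. All KO-labelled libraries lay below all WT-labelled ones, by -0.77 ± 0.12 (edgeR adjusted p = 0.00121), -0.97 ± 0.07 in set A and -0.53 ± 0.07 in set B. Gm8730 went the other way, at 285, 293 and 292 against 1.42, 3.13 and 1.27 CPM in set A and 300, 293 and 294 against 162, 153 and 145 CPM in set B. Its level was thus alike in the 6 KO-labelled libraries and differed between the sets in the WT-labelled ones. Gm9625 stood at 61.5 to 71.5 CPM in the KO-labelled libraries, at 0.449 to 1.33 CPM in WT-labelled libraries of set A and at 31.7 to 36.2 CPM in those of set B. Summed over Rplp0 and the 3 copies, the set A means were 898 ± 27.7 against 1038 ± 69.2 CPM and the set B means 912 ± 21.8 against 972 ± 16.3 CPM (SD, n = 3 each). The sum was lower in every KO-labelled library (867.5 to 937.0 CPM) than in every WT-labelled one (953.4 to 1118 CPM), and the difference was smaller than that of Rplp0 alone. Since reads may be split between the copies, the values of each copy are uncertain. Of 78 ribosomal protein genes, Rplp0 was the single called member, and the list median was -0.04.

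Several called genes lie near Nos1. Within 5 Mb of Nos1 on chromosome 5, 116 other genes were tested. Of these, 5 were called in set A (4.31%, beside 0.201% of all genes), namely Rplp0, Gltp, Coq5, 1500011B03Rik and Gcn1l1, a partner of the amino acid sensing kinase GCN2, whose starts all lay on the same side of Nos1, at -3112 to -2216 kb from its start. Gcn1l1 stood at 125, 106 and 118 CPM against 49.0, 64.7 and 51.6 CPM in set A (1.08 ± 0.12; edgeR adjusted p = 4.54e-07) and at 86.6, 86.4 and 81.5 against 68.6, 72.5 and 73.9 CPM in set B (0.24 ± 0.12, not called). The KO-labelled libraries lay above the WT-labelled ones in both sets, and the difference was smaller in set B (-0.84; adjusted p = 0.00213). In set B, 15 of the 116 were called (12.9%, beside 2.95% of all genes), and 9 of those 15 were interferon-induced Oas and Oasl genes, which form a cluster on either side of Nos1. Of the 24 genes whose groups did not overlap, Nos1 was 1 and 6 others lay within the same 5 Mb. Those 6 were 5.17% of the 116, beside 0.185% of all genes tested.

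**Figure D2:**
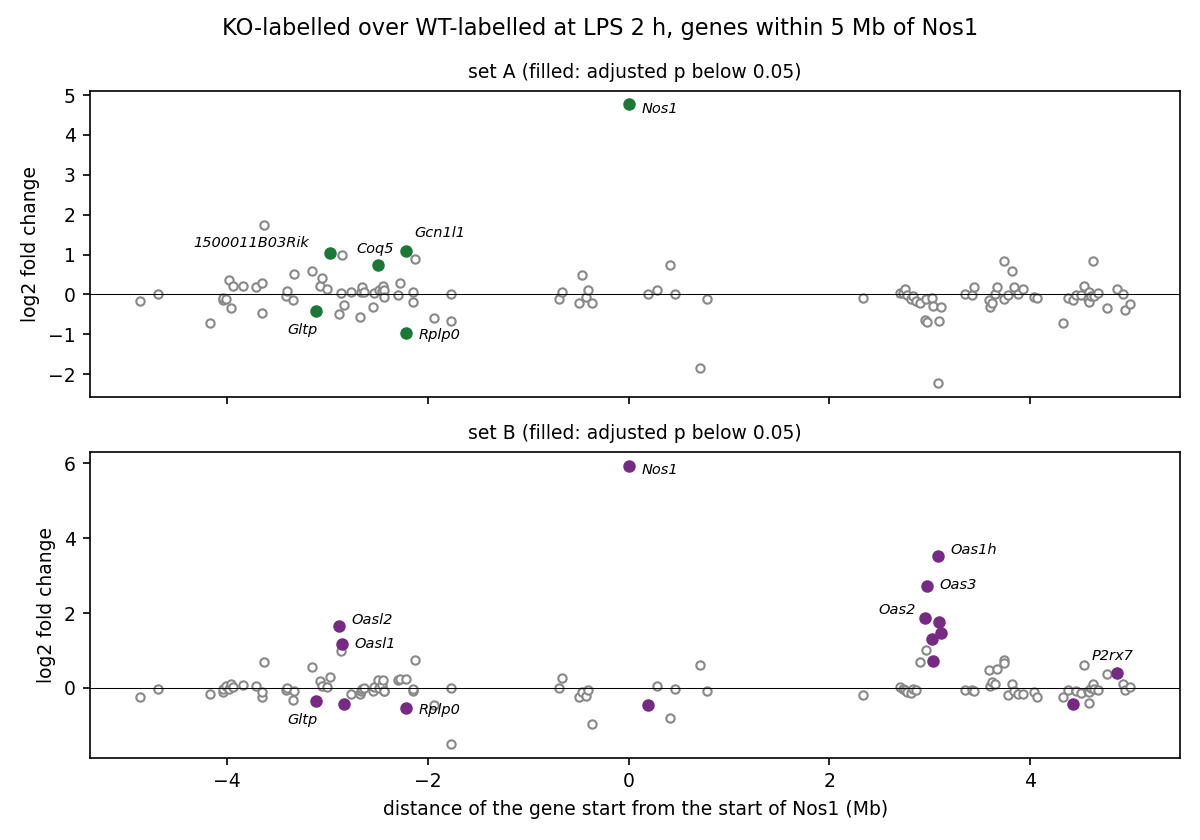
Log2 fold change of KO-labelled over WT-labelled libraries at LPS 2 h (y axis) against the distance of each gene's start from that of Nos1 (x axis, Mb), in set A (top) and set B (bottom). Filled points passed edgeR's adjusted p of 0.05; set A has 5 besides Nos1, all to the left of it, and set B has 15, of which 9 are Oas and Oasl genes.

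In set B the interferon-stimulated genes differed together. Of 65 tested genes of this list, which encode antiviral effectors and interferon signalling proteins, 54 were called higher in KO-labelled libraries of set B (2.3% of all genes were), all 65 had a positive log2 fold change, and the median was 1.24 beside -0.01 over all genes. In set A edgeR, the tool used within sets, called 0, with 29 at an unadjusted p below 0.05 beside 1002 of all 12957 genes. There 1 of 65 was positive and the median was -0.40. Over all 12 libraries edgeR called 0 (21 unadjusted, and 0 by DESeq2 or limma-voom), with a median of 0.48. The list had been called higher between the controls in earlier results of these data, so its direction at 2 h is not independent evidence.

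Ifnb1 was called higher in set B as well, while Irf3 (-0.21) and the receptor genes Ifnar1 (0.03) and Ifnar2 (-0.04) were not. Ifnb1 (ENSMUSG00000048806, chromosome 4, 88522025 to 88522774), the interferon-beta gene itself, stood at 140, 128 and 127 CPM in KO-labelled and 29.0, 29.2 and 26.7 CPM in WT-labelled libraries of set B. The groups lay far apart, and the log2 fold change was 2.22 ± 0.14 (edgeR adjusted p = 3.24e-13). In set A the values were 70.5, 68.3 and 73.6 against 58.4, 55.2 and 75.6 CPM (0.17 ± 0.14, not called), so the labels overlapped there. Interferon-alpha genes, which are near-identical to each other so that counts may be split among them, had too few counts to be tested. Ifna2 had 27, 29 and 26 counts in KO-labelled against 4, 0 and 1 in WT-labelled libraries of set B, Ifna5 had 41, 30 and 24 against 1, 0 and 1, and Ifna4 had 17, 24 and 24 against 2, 5 and 3. In set A each of these 3 genes had 0 to 2 counts in every library.

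Irf7 (ENSMUSG00000025498, chromosome 7, 141262706 to 141266481), the factor that amplifies interferon-alpha expression, stood at 316, 309 and 290 CPM in KO-labelled and 55.1, 55.2 and 52.2 CPM in WT-labelled libraries of set B (2.49 ± 0.32; edgeR adjusted p = 9.22e-06). In set A it stood at 75.3, 38.1 and 57.8 against 99.7, 43.8 and 80.5 CPM. The KO-labelled libraries of set B stood apart from the other 9, which overlapped. Irf8, a macrophage lineage factor, was higher by 0.73 and Irf4 by 0.82 in set B, and of 11 genes for interferons, their receptors and IRF factors 4 were called higher there (2.3% of all genes were), with a list median of 0.03. Usp18, which switches the receptor off, was higher by 1.76 ± 0.29.

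Among the effectors, Oas3 (ENSMUSG00000032661, chromosome 5, 120753098 to 120777661), an enzyme that activates RNase L on double-stranded RNA, stood at 232, 221 and 216 CPM in KO-labelled and 32.01, 35.5 and 34.6 CPM in WT-labelled libraries of set B (2.71 ± 0.24; edgeR adjusted p = 1.85e-08). In set A it stood at 40.9, 39.8 and 36.9 against 103, 33.5 and 53.5 CPM, with WT-labelled replicate 1 the high value. Ifit3, of the RNA-binding IFIT family, was higher by 2.54 ± 0.33 in set B, and Zbp1, a nucleic acid sensor, by 2.27 ± 0.30. In WT-labelled libraries LPS changed Oas3 by 0.36 on the log2 scale, Irf7 by 1.94 and Ifit3 by 3.43 against controls. Rsad2, which encodes viperin, had an LPS response of 6.75 there, Isg15 of 4.86 and Cxcl10 of 10.7. Their differences between the labels in set B were 0.92 ± 0.22, 0.68 ± 0.17 and 0.21 ± 0.18, the last not called. The LPS responses are over both sets and share the WT-labelled 2 h libraries with the label differences, so they are not independent. A relation between them was not tested. Ifi206 (3.57), Ifi213 (3.38) and Ifit3b (2.61) were, with Oas3, Ifit3 and Irf7, the 6 largest called rises of set B after genes of low level (mean log2 CPM under 2) were left out, and their values are uncertain because near-identical relatives may share their reads.

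The promoters of these genes were read from RefSeq (GRCm38.p6, from 250 bases before to 50 bases after the start) and searched on both strands for the ISRE core GAAANNGAAA. It was found in 64 of 226 genes called higher in set B with a promoter in that table (28.3%), beside 3.99% of all 27025 genes in the table and 4.06% of the tested genes. Among those 226, it was found in 24 of the 38 interferon-stimulated list members (63.2%) and in 32 of the 156 genes in none of the lists (20.5%). Of the 63 genes called lower it was found in 0, where a count of 0 says only that these letters are not in the window. The 180 bases before the start are shown for 3 of the 6 largest rises in set B, chosen from the 5 whose windows held the core, with the core in capitals on whichever strand it lies.
Oas3 (chr5:120777660-120777839, minus strand): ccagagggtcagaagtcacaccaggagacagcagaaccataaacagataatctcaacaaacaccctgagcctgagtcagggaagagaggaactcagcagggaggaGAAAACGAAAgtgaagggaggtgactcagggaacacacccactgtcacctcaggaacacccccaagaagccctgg
Ifit3 (chr19:34583349-34583528, plus strand): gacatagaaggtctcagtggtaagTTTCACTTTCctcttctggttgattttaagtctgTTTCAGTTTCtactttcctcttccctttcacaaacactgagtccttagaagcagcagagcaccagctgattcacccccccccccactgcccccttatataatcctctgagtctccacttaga
Ifi206 (chr1:173491319-173491498, minus strand): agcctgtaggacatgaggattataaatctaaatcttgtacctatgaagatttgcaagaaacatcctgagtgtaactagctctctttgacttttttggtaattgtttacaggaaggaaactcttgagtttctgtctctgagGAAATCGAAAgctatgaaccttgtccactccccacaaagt
The core begins 75 bases before the start in Oas3, 156 and 122 bases before it in Ifit3 and 40 bases before it in Ifi206. In Ifi213 and Ifit3b, not shown, it begins 73 bases and 188 and 154 bases before the start. The windows of Irf7 and Ifnb1 held no match. The NF-kB motif GGGANNTTCC was found in 3.54% of the set B genes called higher and in 1.63% of all genes in the table.

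**Figure D3:**
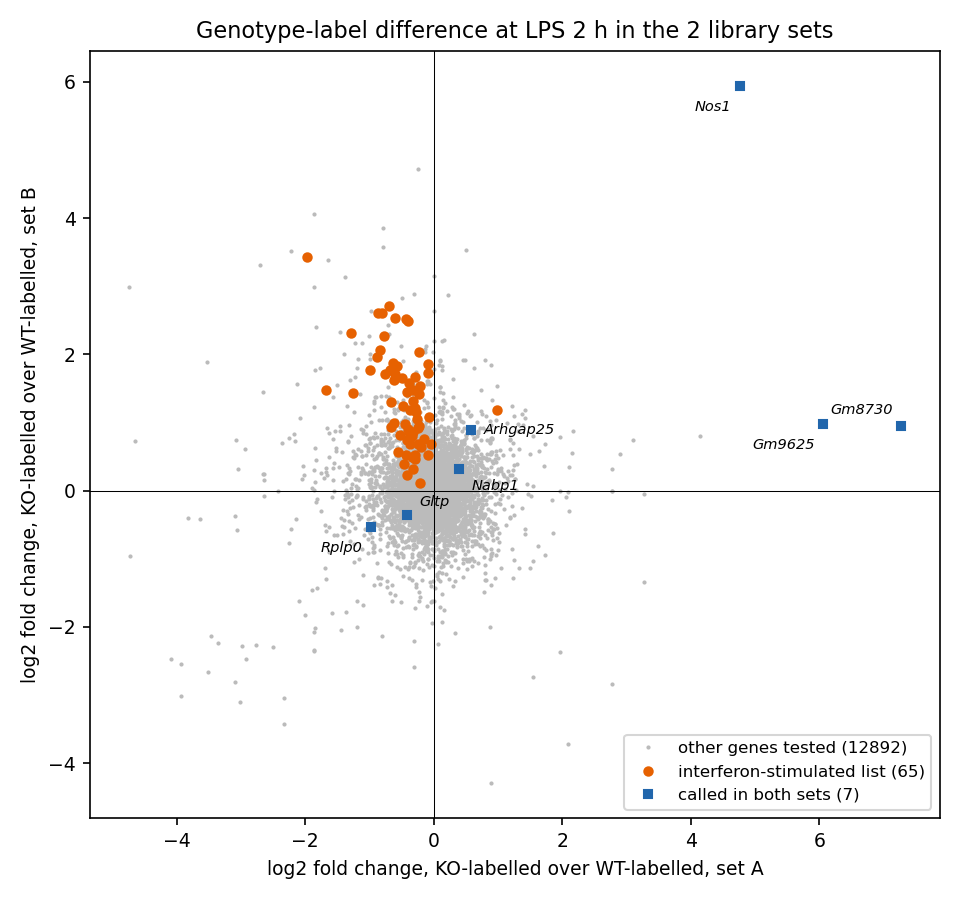
Log2 fold change of KO-labelled over WT-labelled libraries at LPS 2 h in set A (x axis) and set B (y axis) for all genes tested (grey), 65 interferon-stimulated genes (orange) and the 7 genes called in both sets (blue squares). The interferon-stimulated genes all lie above 0 in set B, and all but Oasl1 lie below 0 in set A.

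The difference between the sets was itself tested. Over all genes 280 were called, 239 with a higher KO minus WT difference in set B (1.84%) and 41 with a lower one, and 53 of the 65 interferon-stimulated genes were among the 239. The set A side of this difference changed without WT-labelled libraries in doubt. WT-labelled replicate 1 was the highest library of set A for Oas3, Zbp1 and Ifit3, as replicate 2 was the lowest WT-labelled one. Without WT-labelled replicate 1 the list's median in set A was -0.21, with 7 of 65 positive. Without the 3 libraries in doubt it was 0.22, with 52 of 65 positive. In that fit 1 WT-labelled library, replicate 2, is left in set A and is assumed to vary like the others. Its list sum was 7715 CPM, beside 13770 and 13310 CPM in WT-labelled replicates 1 and 6. The KO-labelled libraries of set A summed to 11700, 6917 and 9999 CPM. Leaving out the higher WT-labelled libraries raises the set A value by itself, so that fit cannot decide its direction. The median in set B was 1.24 and 1.28, with 56 and 51 genes called, in the same fits. The count of list members that differed between the sets was 45 without WT-labelled replicate 1 and 13 without all 3.

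Oasl1, a relative of the Oas enzymes with its start at -2858 kb from that of Nos1, was the member of the list whose groups did not overlap. It stood at 446.5, 371.5 and 326.1 against 297, 104 and 177 CPM in set A and at 650, 655 and 634 against 275, 290 and 292 CPM in set B. All KO-labelled libraries lay above all WT-labelled ones. Its log2 fold change was 1.1 ± 0.37 over all libraries (edgeR adjusted p = 1.0), 0.98 ± 0.26 in set A and 1.18 ± 0.26 in set B, of which the last was called.

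The interferon-stimulated genes also differed in controls and at 8 h, which rest on separate libraries of these labels. Within set B, 63 of the 65 were called higher in KO-labelled controls (median 2.06; 2.43% of all genes were called higher there), 54 at 2 h (median 1.24) and 18 at 8 h (median 0.40; 10.3%). The difference at 2 h was smaller than that in controls for 15 genes by a test of the difference itself (0.185% of all genes), including Isg15 (-2.72), Ifit1 (-2.71), Rsad2 (-2.34) and Irf7 (-2.14). It was larger than that at 8 h for 27 genes (1.3%). For Ifnb1 the 2 h difference of 2.22 stood beside 1.19 at 8 h and 2.17 in controls, where its counts summed to 15 in the 6 KO-labelled and 3 in the 6 WT-labelled libraries and it was not called. Over all libraries, without the sets, edgeR called 0 genes whose 2 h difference differed from that in controls (153 unadjusted) and 0 against 8 h (430 unadjusted).

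**Figure D4:**
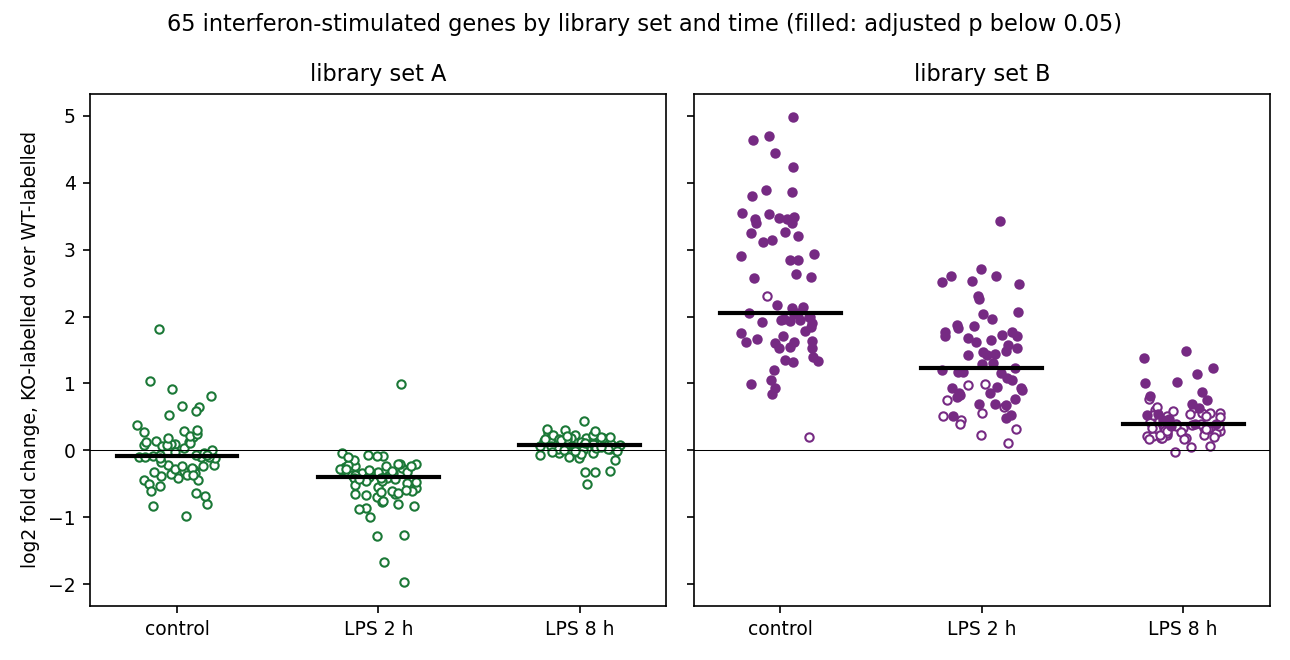
Log2 fold change of KO-labelled over WT-labelled libraries (y axis) of 65 interferon-stimulated genes in controls and after LPS for 2 and 8 h (x axis), in set A (left) and set B (right); bars are medians and filled points passed edgeR's adjusted p of 0.05. In set B the median falls from 2.06 to 1.24 and 0.40, and in set A no gene is called.

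Antigen presentation and surface genes followed in set B. Of 21 genes of MHC class I presentation, 11 were called higher (2.3% of all genes were) and all 21 were positive (median 0.49). The set A median was -0.24 with 0 called (9 unadjusted, beside 1002 of all 12957 genes). Of 9 MHC class II genes edgeR called 0 in either set (1 unadjusted in each), with a median of 0.15 in set B and -0.63 in set A. B2m, the light chain of MHC class I, stood at 2394, 2458 and 2418 against 1382, 1332 and 1339 CPM in set B (0.84 ± 0.13), and Tap1, the peptide transporter, was higher by 0.76 ± 0.15. H2-T24 was higher by 2.43 ± 0.19. Fcgr1, the high-affinity IgG receptor, stood at 178, 186 and 190 against 62.9, 66.0 and 63.6 CPM (1.53 ± 0.09; edgeR adjusted p = 2.17e-13), and in set A at 52.8, 52.5 and 59.4 against 73.9, 52.6 and 62.6 CPM. Tnfsf10, which encodes the death ligand TRAIL, was higher by 2.01 ± 0.21, Cxcl11 by 1.20 ± 0.24, Tlr3, the endosomal sensor of double-stranded RNA, by 0.96 ± 0.16, and Mlkl, the effector of necroptosis, by 0.63 ± 0.10. Each of these was positive in set B and negative in set A.

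Of 26 immediate early genes, 3 were called higher in set B (2.3% of all genes were), with a list median of 0.05 and 15 positive. They were Fos (0.90 ± 0.23), Fosb (1.33 ± 0.35) and Jun (0.57 ± 0.12), members of the AP-1 factor. In set A their values were 0.32, 0.14 and 0.27, not called, and the difference between the sets was not called for any of the 3.

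Antioxidant genes were among those lower in set B. Of a list of 16 genes of the NRF2 pathway, which holds NRF2, the factor that answers oxidative stress, its inhibitor Keap1 and antioxidant targets, 5 were called lower (0.648% of all genes were), none higher, with a median of -0.35 in set B and 0.02 in set A. Gclm, a subunit of the enzyme that makes glutathione's precursor, stood at 44.4, 44.8 and 43.7 CPM in KO-labelled against 74.2, 76.6 and 71.0 CPM in WT-labelled libraries of set B (-0.74 ± 0.09; edgeR adjusted p = 1.35e-06). In set A it stood at 81.7, 96.8 and 90.3 against 102, 80.8 and 86.7 CPM, which overlapped. Srxn1, which repairs peroxiredoxins, was lower by -0.49 ± 0.10 and Prdx1, a peroxiredoxin, by -0.47 ± 0.09. For these 3 genes the difference between the sets was called. Of 31 sterol and fatty acid genes edgeR called 0 in set B (13 unadjusted, beside 1409 of all 12957 genes). Their medians were -0.37 in set B and 0.18 in set A.

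In set B the neutrophil marker genes Ngp (-0.69), Camp (-0.96), Lcn2 (-0.82) and S100a9 (-0.73) were called lower. They were 4 of 14 neutrophil markers tested (0.648% of all genes were called lower). In set A 0 of the 14 were called, and the median was 0.44. The 15 neutrophil markers summed to between 285.6 and 294.2 CPM in KO-labelled and between 423.8 and 455 CPM in WT-labelled libraries of set B. In set A they summed to between 154.5 and 159.8 against 118.6 and 144.5 CPM, the reverse order. Stromal and endothelial markers summed to between 132.5 and 149.1 against 200.5 and 218.9 CPM in set B, and erythroid and megakaryocyte markers to between 437.4 and 503.3 against 573.5 and 659.1 CPM. The lower genes Fn1 (fibronectin, -1.04), Acta2 (smooth muscle actin, -1.32), Col5a2 (-1.41), Ccn2 (-1.13) and F13a1 (-1.20) stood beside these sums, together with Cd38 (-1.39). Fn1, Stab1 (a scavenger receptor, -0.61) and Chil3 (-0.56) are also members of the alternative macrophage activation list. Of its 17 tested genes these 3 were called lower in set B (0.648% of all genes were). Pparg (0.33) was called higher there (2.3% of all genes were), and the list median was -0.18. The part of such cells in these differences was not tested, and in bulk samples fewer cells of a type and less RNA per cell cannot be told apart. T cell and NK cell markers summed to between 235.5 and 242.2 CPM in KO-labelled and between 183.0 and 186.6 CPM in WT-labelled libraries of set B. Nearly all of this sum was 1 gene, Il7r (mean 199.0 CPM over the 12 libraries; 0.42 higher in set B), and Cd3e was at 0 in all 12. Over the 12 libraries, no marker list passed an exact permutation test after adjustment over 8 lists, the smallest adjusted p being 0.05195 for B cell markers (KO-labelled 161.7 to 174.3, WT-labelled 171.6 to 184.6 CPM). That test ignored the library sets, so it could miss the set B differences above, and no marker sum was tested within a set.

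**Figure D5:**
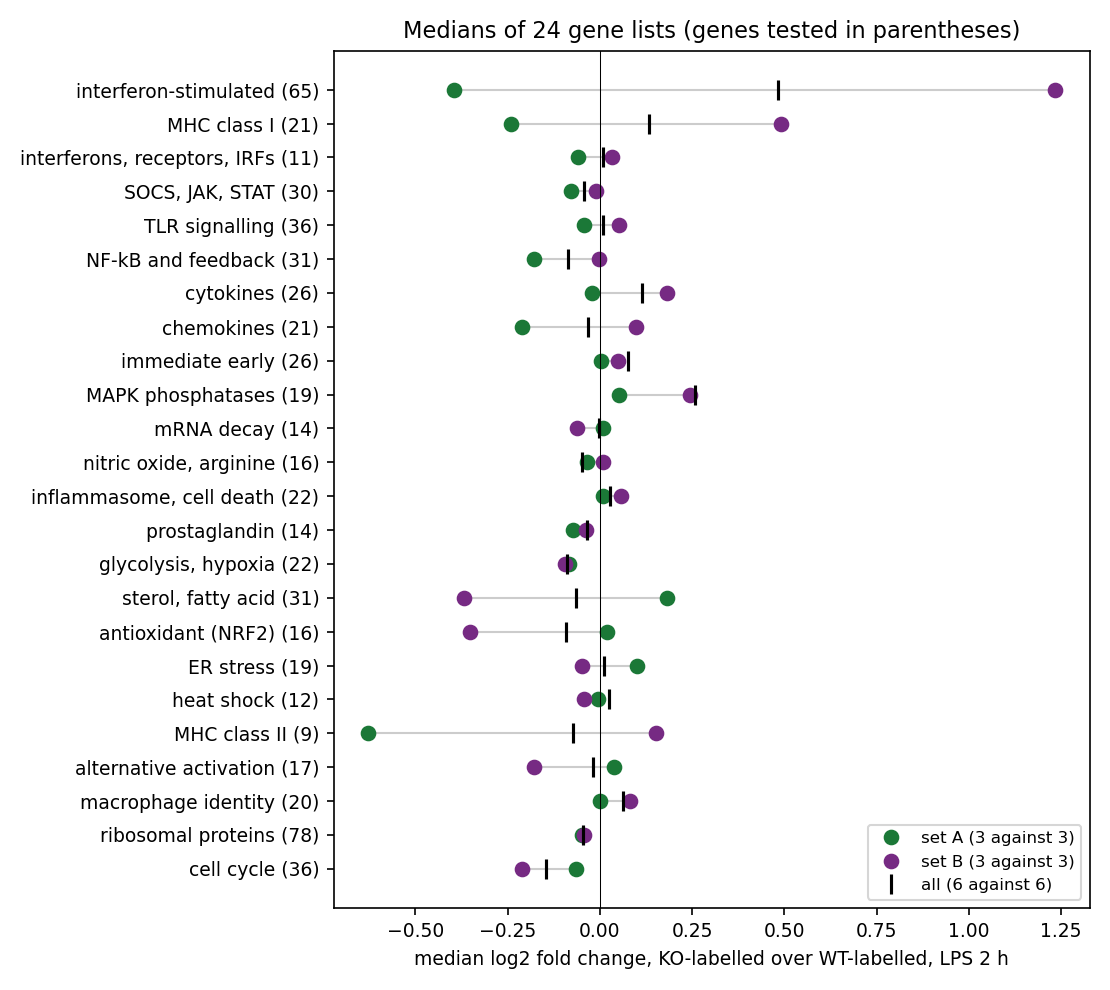
Median log2 fold change of KO-labelled over WT-labelled libraries at LPS 2 h (x axis) for 24 gene lists (y axis, number of genes tested in parentheses), in set A (green), set B (purple) and over all 12 libraries (black bars). Interferon-stimulated and MHC class I genes have the highest set B medians (1.24 and 0.49) and sterol and antioxidant genes the lowest (-0.37 and -0.35).

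Of the genes called within set A, Il27, a cytokine subunit that LPS induces, stood at 81.7, 53.5 and 64.1 CPM in KO-labelled and 116, 102 and 94.6 CPM in WT-labelled libraries (-0.65 ± 0.12; edgeR adjusted p = 0.00656), and in set B at 87.2, 95.0 and 91.9 against 68.9, 88.2 and 84.8 CPM. The labels separated in set A and overlapped in set B. The values of the sets differed by edgeR (0.83; adjusted p = 0.00296), as they did for Ikzf1, C3 and Mgll, but not by that test for Fscn1, Col27a1 and Cpeb2. Lower in set A were also Ikzf1, a lymphoid and myeloid transcription factor (-0.65 ± 0.12), C3, complement component 3 (-0.74 ± 0.15), Fscn1, an actin bundling protein of dendritic cells (-1.05 ± 0.23), and Col27a1 (-1.01 ± 0.20). Higher were Mgll, which breaks down monoacylglycerols (0.70 ± 0.16), and Cpeb2, a regulator of mRNA polyadenylation (0.56 ± 0.11). Without WT-labelled replicate 1, each of these 7 genes missed the threshold, with adjusted p values of 0.0543 to 0.227 in edgeR. The value of Ikzf1 was then -0.40, while Cpeb2 (0.57), Mgll (0.67), Fscn1 (-0.96), Il27 (-0.57), C3 (-0.62) and Col27a1 (-0.75) moved by less than 1.5 times. The calls depended on other libraries too. Without KO-labelled replicate 2, all but Fscn1 missed the threshold, with edgeR adjusted p values of 0.0883 to 0.234. Without KO-labelled replicate 6, Il27, C3, Fscn1 and Col27a1 missed it, and with the 12 libraries alone all but Cpeb2 did. The set A count itself was 219 without WT-labelled replicate 2 and between 14 and 39 without each of the other libraries.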

How the data were processed

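RNA of 36 libraries was sequenced, and 12 of them (LPS 2 h) are described. The deposited values are raw counts per Ensembl gene; per the submitters' processing notes, reads were counted with HTSeq on mm10. Aligner, annotation, HTSeq version and strandedness: not given in the sources used here, so reads of overlapping or antisense genes may not be told apart. Symbols and positions were taken from GENCODE M21 (54079 of 54232 identifiers matched).

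Groups came from the labels, which number no replicates, so replicate numbers follow the order of deposit and only name libraries. Genes were kept by edgeR's filterByExpr (12957), scaled by TMM and tested with edgeR 4.0.16's robust quasi-likelihood test in R 4.3.3, in 1 fit of 36 libraries with 1 mean per group, with Benjamini-Hochberg adjustment at 0.05. SE was taken from the fold change and its F. The library sets are the 2 signs of the first principal component (34.62% of variance) of group-centred log2 CPM, so they were defined from the data, and a fit with 1 mean per group and set gave the values within sets. Marker sums were compared by 2-sided exact permutation tests. Depth of 10094354 to 18482551 counts limits genes of few counts. No replicates were merged.

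Alternatives were DESeq2 1.42.0, limma-voom (limma 3.58.1), sva 3.50.0 and other normalizations, filters, samples and terms. The scripts were tested on simulated data. Named genes were all genes called over the 12 libraries, the 6 largest called changes per direction and set at a mean log2 CPM of at least 2 (Gm and Rik names left out), genes called in both sets, up to 2 called members per list and direction, and a fixed list of LPS and nitric oxide genes. Others named were chosen after their values were seen. The comparison and the gene lists were chosen with earlier results of these data known. The 36 lists hold 765 genes. Some items are not reported here. Promoters are RefSeq's (GRCm38.p6).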

Additional observations from a re-analysis of the deposited data

Results flagged for a closer look

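Among the genes named, 170 groups of 6 libraries were checked for a library far from the other 5, and 12 were found; chance gives about 1 in 20. WT-labelled replicate 1 was such a library for 6 genes other than Oas3: Hpgd (40.2 CPM, others 0.475 to 3.11), Ifi213 (15.1, others 1.33 to 3.82), Zbp1 (30.2, others 8.26 to 16.4), H2-T24 (16.5, others 5.77 to 8.76), Ifitm3 (506, others 167 to 251) and Ikzf1 (125, others 68.3 to 84.0). For Oas3 it stood at 103 CPM, others 32.01 to 53.5. WT-labelled replicate 2 was low for Col5a2 (3.23, others 8.42 to 11.3) and Mlkl (25.6, others 33.4 to 37.5). KO-labelled replicate 2 was low for Ccl5 (391.5, others 521 to 572) and Nfkb1 (302, others 395.9 to 417.2), and WT-labelled replicate 6 was high for Nos1 (0.300 CPM, others 0 to 0.0950).

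The KO minus WT difference differed between the library sets by edgeR's test for 280 genes. As set B minus set A on the log2 scale, interferon-stimulated and related genes were higher: Ifi213 by 5.01, Ifi206 by 4.36, Ifit3b and Oas3 each by 3.41, Ifit3 by 3.14, H2-T24 by 3.13, Tnfsf10 by 3.002, Irf7 by 2.89, Usp18 by 2.76, Ifnb1 by 2.05, Cxcl11 by 1.76, Fcgr1 by 1.73, Socs1 by 1.65, Ifit1 by 1.55, Rsad2 by 1.16, Tlr3 by 1.09, B2m by 1.08, Irf8 by 1.06, Tap1 by 0.98, Isg15 by 0.92 and Mlkl by 0.68. C3 (1.15), Il27 (0.83), Ikzf1 (0.68) and Rplp0 (0.44) were also higher. Values were lower for S100a9 (-1.32), Mgll (-1.23), Chil3 (-1.04), Ngp (-1.02), Stab1 (-0.77), Gclm (-0.74), Srxn1 (-0.69), Prdx1 (-0.60), Gcn1l1 (-0.84), Gm14165 (-1.60), Gm9625 (-5.07) and Gm8730 (-6.33).

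Within set B, the 2 h difference minus that in controls passed the threshold for Isg15 (-2.72), Ifit1 (-2.71), Oasl1 (-2.37), Rsad2 (-2.34), Irf7 (-2.14), Cxcl10 (-1.89) and Arhgap25 (0.91).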

How the results depend on the processing

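No paired analysis was possible because the labels give no replicate numbers. Without 1 library, the count called over all libraries was 2 to 3, within set A 14 to 219, within set B 219 to 464, between the sets 170 to 423, and of interferon-stimulated genes in set B 43 to 58. The highest count in set A was without WT-labelled replicate 2. In set B the counts below 255 were without WT-labelled replicate 3 (219), 4 (239) or 5 (245) and KO-labelled replicate 3 (252), 4 (236) or 5 (239). Over all libraries 9 genes were called with set as a term, 9 in set A alone, 1398 in set B alone, 18 with surrogate variables and 5 by DESeq2. Counts within set A were 332 with no count filter, 12 with the 12 libraries alone and 12 without BMDM-labelled libraries. Within set B they were 610 and 251, and between the sets 516 and 130, for the first 2 of those settings. Without the 3 libraries in doubt, 59 genes and 13 interferon-stimulated genes differed between the sets, and with the 12 libraries alone 32 of the latter did.

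Directions changed as follows; the cause was not tested. The interferon median over all libraries was -0.39 in set A alone, and that of set A 0.22 without the 3 libraries in doubt. The latter fit leaves WT-labelled replicate 2, the lowest for this list, as the 1 WT-labelled library of set A. In set A alone Socs1 was -0.70, Irf7 -0.39, Isg15 -0.25 and Tnf 0.072. In set B alone Nos2 was 0.27 and Cxcl10 0.22. With surrogate variables Tnf was 0.20, Il1b 0.038 and Cxcl10 0.11. Without the 3 libraries in doubt Il1b was 0.22, Cxcl10 0.091 and Nfkbia 0.013. Cxcl10 was 0.051 without BMDM-labelled libraries and 0.0025 with a sex term. Without 1 library, Cxcl10 ranged from -0.11 to 0.055, Il1b from -0.28 to 0.0053 and Tnfaip3 from -0.0040 to 0.21. None of these genes was called. Of the other values over all libraries, 493 kept side and direction, 21 lost and 33 gained the threshold; within set A 312 kept both and 66 lost it, and within set B 941 and 88. The settings without the 3 libraries in doubt, without a robust spread, and for counts within sets were chosen after seeing the data. Depth limits Nos1 in WT-labelled libraries, Ankrd55 and the interferon-alpha genes.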

Other observations

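Interferon-gamma (Ifng) had 0 counts in all 12 libraries, which allows up to 3 counts in each, for counting error only. Nos3, the endothelial nitric oxide synthase, had 0 to 4 counts. Ifna1 had 8, 12 and 14 counts in KO-labelled and 0, 2 and 1 in WT-labelled libraries of set B, and 0 to 1 in set A.

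Hpgd, which breaks down prostaglandins, had 565 counts in WT-labelled replicate 1 and 5 to 45 counts in the other 11 libraries. Summed over the 66 interferon-stimulated genes, KO-labelled libraries held 6917 to 11700 CPM in set A and 13440 to 14420 CPM in set B, and WT-labelled libraries 7715 to 13770 CPM and 6510 to 6994 CPM. The widest range was thus among WT-labelled libraries of set A and the narrowest among those of set B.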
